A study of Mus musculus with 13 samples.

Results

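Collagens, laminins and nidogens form a set of 60 genes among the 45250 genes of the deposited RNAseq tables. They were taken by symbol: every collagen chain, every laminin α, β or γ chain, Nid1, Nid2, Hspg2, Fn1 and Sparc. For comparison they were split into a basement membrane class of 20 genes (the type IV collagen chains, the laminins, the nidogens and Hspg2), a fibrillar class of 11 collagen chains, and 27 other collagens, with Fn1 and Sparc kept apart. The study followed mouse embryonic stem (ES) cells on their way to blood, with and without the transcription regulators LMO2 and TAL1. RNA was sequenced from Flk-1+ cells of WT, Lmo2-/- and Tal1-/- cultures (3 libraries each) and from the first haemogenic endothelium stage, HE1, of WT and Lmo2-/- cultures (2 libraries each). Flk-1+ cells, the population that holds the haemangioblast, were isolated from embryoid bodies with magnetic beads. HE1 cells were sorted as Tie2+, Kit+ and CD41- from blast cultures, in which Flk-1+ cells grew on gelatin in endothelial-conditioned medium with VEGF and IL-6, so that stage and culture format cannot be told apart. Each genotype came from ES cells kept on feeders before differentiation. The sources used here name 1 WT line, CCB, and no second clone of either mutant, so that genotype and line cannot be told apart and p-values measure the spread between libraries.

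Basement membranes are thin sheets beneath endothelium and other cell layers, in which a type IV collagen network and a laminin network are joined by nidogens and the heparan sulphate proteoglycan perlecan (Hspg2). Fibrillar collagens such as types I, III and V assemble into the fibres of interstitial matrix and are made in quantity by fibroblasts and other mesenchymal cells. Fibronectin (Fn1) is an early matrix that migrating mesoderm and forming vessels use, and SPARC is a matricellular glycoprotein that binds collagens.

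Before any matrix gene is considered, the targeted genes were examined. Lmo2 was at 22.8, 30.8 and 21.6 FPKM (a fragment count scaled for transcript length and library size) in the WT Flk-1+ libraries and at 2.63, 6.48 and 2.17 in the Lmo2-/- ones. Tal1 was at 37.4, 25.6 and 22.0 FPKM in WT Flk-1+ and at 2.74, 3.41 and 2.88 in Tal1-/- Flk-1+. Thus in Flk-1+ cells neither gene's libraries overlapped between WT and its own mutant. In HE1 the order did not follow the labels, with Lmo2 at 4.30 and 20.6 FPKM in the WT libraries and at 6.42 and 0 in the Lmo2-/- libraries. The HE1 libraries are therefore referred to as they are labelled. Lmo2-/- HE1 replicate 1 also stood apart: it had 9694 genes above 0 against 11861 to 15641 in the other 12 libraries, and 183 of 4062 high genes were listed at 0 there against at most 55. Its median FPKM over the tested genes was 7.45 against 4.29 to 5.68 in the others. A listed value of 0 may therefore be a failed estimate. For Lmo2-/- HE1 against Lmo2-/- Flk-1+ and against WT HE1, the counts of calls and the class medians are given with and without this library. For the interaction of genotype and stage only the class medians are. The spread of each gene was estimated over all libraries, so this library also bears on the calls of the other comparisons. The files hold no fragment counts, so the depth is unknown. Of the gate markers, Kdr, which encodes Flk-1, lay between 68.7 and 275 FPKM in all libraries, and Tek, which encodes Tie2, was at 121 FPKM or more in HE1 and at 2.27 or less in Flk-1+ cells. Itga2b, which encodes CD41, the marker that HE1 cells were sorted to lack, was at 15.4 and 10.4 FPKM in WT HE1 and at 19.8 and 0 FPKM in Lmo2-/- HE1, against 5.54 or less in Flk-1+ cells.

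Stretches of sequence are shown for genes on which the results turn: Nid1 had the largest rise of the basement membrane class in WT cells, Col3a1 differed between the HE1 genotypes, and Col4a1 and Col4a2 lie head to head. The sequences are from RefSeq's GRCm38.p6 promoter table, in which 43 of the 60 genes had an entry, with 47 windows. Col1a1, Fn1, Lamc1, Nid2, Lama4 and Col5a2 had none. Capitals mark the letters CANNTG, the E-box, and GATA on either strand (TATC on the strand shown), which are the motifs that bHLH factors such as TAL1 and the GATA factors are known to recognise. The Nid1 stretch is chr13:13437352-13437550 on the plus strand and ends where the annotated gene begins. The Col3a1 stretch is chr1:45311288-45311537, also on the plus strand and directly before the gene. The third is chr8:11312805-11312826, the 22 bases in which the first exons of Col4a2 (plus strand) and Col4a1 (minus strand) overlap.
Nid1: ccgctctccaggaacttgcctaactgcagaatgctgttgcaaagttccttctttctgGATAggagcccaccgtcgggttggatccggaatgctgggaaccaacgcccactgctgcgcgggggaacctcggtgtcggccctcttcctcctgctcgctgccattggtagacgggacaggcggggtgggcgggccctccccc
Col3a1: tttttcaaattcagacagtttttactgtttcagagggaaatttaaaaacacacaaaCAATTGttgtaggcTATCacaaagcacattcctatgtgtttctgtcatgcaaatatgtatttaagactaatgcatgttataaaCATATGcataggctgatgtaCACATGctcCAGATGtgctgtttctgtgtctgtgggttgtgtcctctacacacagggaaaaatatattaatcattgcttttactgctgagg
Col4a2 and Col4a1: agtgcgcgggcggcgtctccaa
The Nid1 stretch of 199 bases held no CANNTG and 1 GATA, while the 250 bases before Col3a1 held 4 CANNTG and 1 GATA on the opposite strand. In the 250 bases before the start, CANNTG was found in 26 of the 47 windows (55.3%) against 66.2% of all 32851 windows in the table. GATA on either strand was found in 17 (36.2%) against 53.6%. The composite CTGNNNNNNNNGATA, searched on both strands and counted under GATA as well, was found in 1 (2.13%) against 1.91%. These are matches of letters only.

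Of the 60 genes, 42 reached 1 FPKM in 2 or more libraries and were tested, namely 14 of the basement membrane class, 10 of the fibrillar class, 16 other collagens, Fn1 and Sparc. A mean above 10 FPKM in at least 1 group was reached by 26 genes (13, 7 and 4 of the classes in that order, plus Fn1 and Sparc). The other 34 had no single value above 15.4 FPKM, and 5 of them were at 0 in all 13 libraries. Col4a3, Col4a4, Lama2, Lama3, Lamb3 and Lamc3 were among the 18 that were too low to test. The type IV and laminin genes that were measured well were thus Col4a1, Col4a2, Col4a5, Col4a6, Lama1, Lama4, Lama5, Lamb1, Lamb2 and Lamc1.

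**Figure D1:**
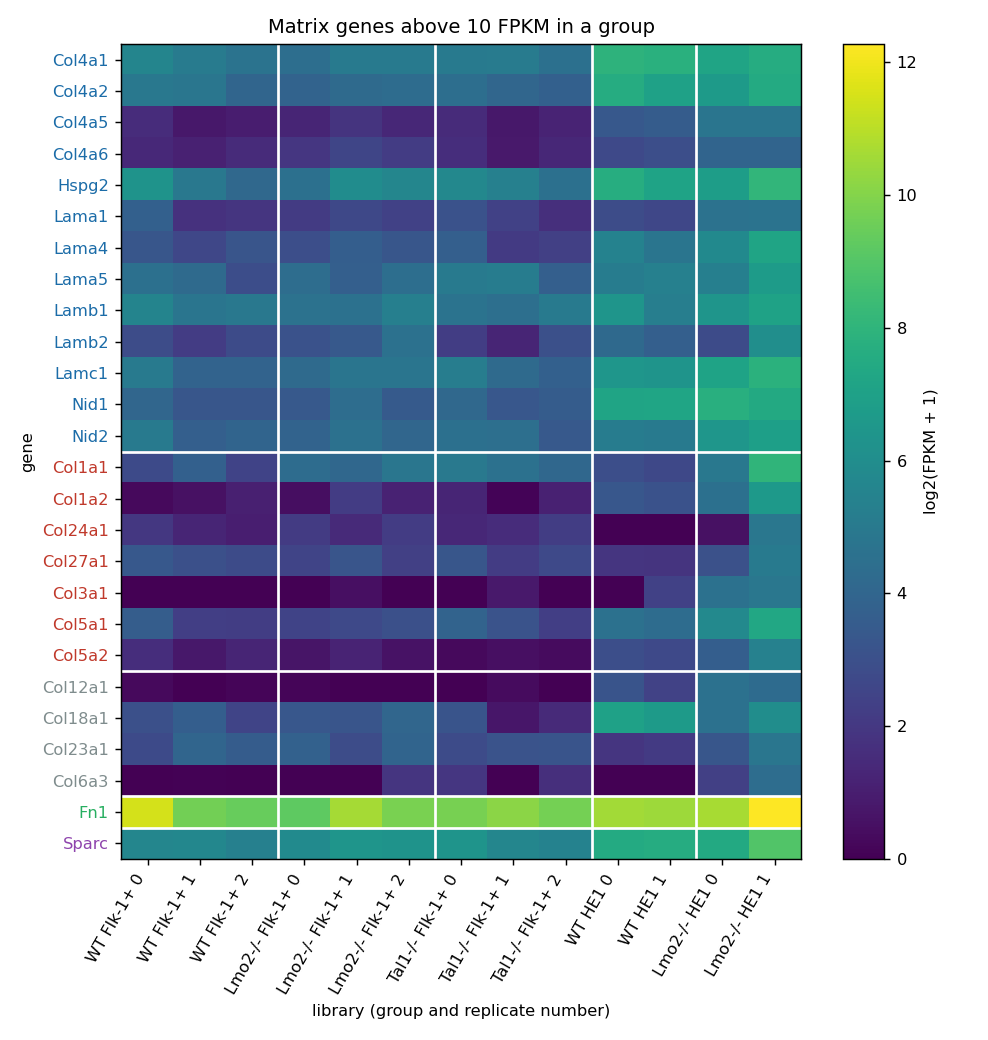
Level of each matrix gene above 10 FPKM in a group (rows, coloured by class: blue basement membrane, red fibrillar, grey other collagens, green Fn1, purple Sparc) in each of the 13 libraries (columns, with replicate numbers), as log2(FPKM + 1). Fn1 has the highest level in every library, the blue rows are brighter in the 4 HE1 libraries, and the red rows are brightest in Lmo2-/- HE1 replicate 1.

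The first question was how the matrix genes changed as WT Flk-1+ cells gave rise to HE1. Genes were called at an adjusted p below 0.05 (limma, Benjamini-Hochberg over all 13802 tested genes) and a mean above 10 FPKM in a group compared. In WT cells 9 of the 42 tested genes were called higher and none lower, and 7 of these 9 belonged to the basement membrane class. Over all tested genes 6.04% were called higher in this comparison. Col13a1, listed at 0 in both WT HE1 libraries, had a log2 fold change of -3.24 (adjusted p = 0.00108, limma). Its means did not exceed 10 FPKM, so it was not called. All 14 tested genes of the basement membrane class had a positive log2 fold change, with a median of 1.77, while the 10 fibrillar genes split 5 to 5 around a median of -0.08 (0.13 after quantile normalization), and the median over all genes was 0.11. No fibrillar collagen was called (limma), and 3 of the 10 had an unadjusted p below 0.05, but Col5a1 was called when WT Flk-1+ replicate 0 or either Lmo2-/- HE1 library was left out. Over all genes 3302 of 13802 had an unadjusted p below 0.05 in this step (limma). Bulk levels cannot tell fewer cells of a type from less RNA per cell, here or below. Markers of other cells moved with this step: 6 smooth muscle markers summed to 5.18 to 14.2 FPKM in WT Flk-1+ and to 171 to 218 in WT HE1, mostly Acta2. The 8 endothelial markers went from 149 to 295 FPKM in WT Flk-1+ to 1091 to 1111 in WT HE1. The 8 parietal endoderm markers lay at 73.5 to 179 FPKM in WT Flk-1+ and at 282 to 338 in WT HE1. Most of the HE1 sum was Sox7, and Sox17, Thbd, Plat and Dab2 rose as well without overlap. Gata4, the highest of the list in WT Flk-1+, went the other way, from 109.75, 69.3 and 49.6 FPKM to 37.8 and 40.3 FPKM. Gata6 overlapped, and Stra6 was at 0 in WT HE1. The 8 fibroblast or feeder markers were at 24.3 to 45.9 FPKM in WT Flk-1+ and at 13.4 to 22.9 in WT HE1, with members moving in opposite directions. Pdgfra, most of the Flk-1+ sum, fell from 42.8, 22.5 and 24.3 FPKM to 2.98 and 1.01 FPKM. Postn rose from 0 in all WT Flk-1+ libraries to 19.97 and 12.4 FPKM. Thy1, Prrx1 and Twist2, low in WT Flk-1+, were at 0 in WT HE1. The part of these levels in the matrix results was not tested.

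The nidogens link the laminin and type IV collagen networks, and Nid1 (chromosome 13, 13437551 to 13512269) had the largest rise of the class. It was at 15.4, 8.82 and 8.89 FPKM in WT Flk-1+ and at 144 and 146 FPKM in WT HE1. The groups lay far apart, and the log2 fold change was 3.65 ± 0.40 (SE, adjusted p = 0.000136, limma). Nid2 was at 31.2, 12.1 and 14.3 FPKM in WT Flk-1+ and at 35.2 and 31.3 FPKM in WT HE1. Its libraries hardly separated, with a log2 fold change of 0.87 ± 0.46 that did not pass (adjusted p = 0.268, limma). The exact permutation test of either gene alone gave p = 0.2 (two-sided, 3 against 2 libraries), the smallest that this design allows.

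Col4a1 and Col4a2 encode the α1 and α2 chains of the most widespread type IV collagen. Col4a1 (chromosome 8, 11198423 to 11312826) was at 46.8, 33.9 and 24.6 FPKM in WT Flk-1+ and at 243 and 219.8 FPKM in WT HE1. Col4a2 (chromosome 8, 11312805 to 11449287) was at 29.5, 27.5 and 14.999 FPKM and then at 196 and 130.4 FPKM. Neither gene's groups overlapped, and the log2 fold changes were 2.73 ± 0.35 and 2.74 ± 0.40 (SE, adjusted p = 0.000391 and 0.000789, limma). The deposited table gives both genes the same locus span, so that reads in the short overlap of their first exons could have gone to either. Col4a5, a chain of a more restricted type IV collagen, rose from 1.95, 0.738 and 0.988 FPKM to 9.32 and 10.8 FPKM (log2 fold change 2.35 ± 0.45, adjusted p = 0.00493, limma). Its neighbour Col4a6 went from 1.71, 1.19 and 1.90 FPKM to 5.61 and 6.67 FPKM, without overlap, and fell just short of the threshold (adjusted p = 0.0502, limma; mean below 10 FPKM in both groups).

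Among the laminins, the γ1 chain Lamc1, which nidogen binds, and the α4 chain Lama4, known from endothelial basement membranes, were called. Lamc1 was at 31.1, 13.8 and 14.1 FPKM in WT Flk-1+ and at 87.4 and 80.6 FPKM in WT HE1 (log2 fold change 2.14 ± 0.47, adjusted p = 0.0113, limma). Lama4 was at 8.73, 5.10 and 8.51 FPKM and then at 42.6 and 26.8 FPKM (2.07 ± 0.54, adjusted p = 0.0281). In both, each HE1 library lay above each Flk-1+ library. Lama5, Lamb1, Lamb2 and Lama1 had log2 fold changes of 1.35, 0.75, 1.34 and 0.25 and were not called. Of these, Lama1, the α chain of the early embryonic laminin, ranged from 2.37 to 12.6 FPKM in WT Flk-1+ and was at 6.12 and 5.06 FPKM in WT HE1, inside that range.

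The perlecan gene Hspg2 was at 78.3, 28.8 and 16.7 FPKM in WT Flk-1+ and at 201 and 137 FPKM in WT HE1. The groups did not overlap, although WT Flk-1+ replicate 0 was well above its companions (log2 fold change 2.27 ± 0.63, adjusted p = 0.0369, limma). Col18a1, whose product is a basement membrane proteoglycan of vessels and the source of endostatin, had the largest rise of all 42 genes. It was at 6.94, 11.7 and 4.66 FPKM in WT Flk-1+ and at 129 and 104 FPKM in WT HE1 (log2 fold change 3.81 ± 0.66, adjusted p = 0.00252, limma). Sparc went from 48.3, 49.5 and 39.2 FPKM to 183 and 191 FPKM (2.02 ± 0.42, adjusted p = 0.00822), again without overlap. The collagen chains with lower levels moved less evenly: Col1a2 and Col12a1 had adjusted p-values of 0.0306 and 0.00119 but means below 10 FPKM in both groups and so were not called. Calls of Col18a1, Col4a1, Col4a2 and Nid1 were made under all 22 alternatives (another scaling, filter or model, or 1 library left out). Without WT HE1 replicate 0 or 1, 5 and 4 genes were called, and 2.01% and 2.49% of all genes. The other 5 calls were lost under some alternatives. Over the 13 fits with 1 library left out, their log2 fold changes ranged from 1.78 to 2.87 (Hspg2), 1.75 to 2.40 (Lama4), 1.95 to 2.51 (Lamc1), 1.91 to 2.08 (Sparc) and 2.19 to 2.57 (Col4a5).

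The same step in the Lmo2-/- cultures addressed whether the matrix genes changed without LMO2. Here 20 of the 42 genes were called higher and none lower. Over all genes 17.2% were called higher, so this comparison as a whole held more calls. Of the basement membrane class 12 of 14 were called, with a median log2 fold change of 2.39. Of the fibrillar class 5 of 10 were called (Col1a1, Col1a2, Col3a1, Col5a1 and Col5a2), with a median of 1.83, against 0.30 over all genes. These medians were 2.26 (basement membrane), 0.88 (fibrillar) and 0.24 (all genes) without Lmo2-/- HE1 replicate 1. In this step the smooth muscle markers summed to 6.49 to 12.2 FPKM in Flk-1+ and 355 to 907 in HE1, and the fibroblast or feeder markers to 28.3 to 32.8 and 156 to 475. The endothelial markers summed to 139 to 180 FPKM in Flk-1+ and 832 to 971 in HE1, and the parietal endoderm markers to 93.5 to 170 and 274 to 292. Single markers did not all rise: Thy1 was at 1.35, 2.18 and 0.569 FPKM in Lmo2-/- Flk-1+ and at 0 in both HE1 libraries, and Cnn1 overlapped. The part of these levels was not tested here either. Col12a1, Col6a3 and Sparc were called as well. Of these 20 genes 8 were also called in WT (Col4a1, Col4a2, Col4a5, Hspg2, Lama4, Lamc1, Nid1 and Sparc), and the 1 gene called in WT alone was Col18a1.

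Of the shared genes, Nid1 went from 9.75, 20.2 and 10.1 FPKM in Lmo2-/- Flk-1+ to 216 and 175 FPKM in Lmo2-/- HE1 (log2 fold change 3.84 ± 0.40, adjusted p = 6.67e-05, limma). Col4a1 went from 20.4, 31.7 and 30.9 FPKM to 141 and 195 FPKM (2.57 ± 0.35, adjusted p = 0.000402). For both genes the HE1 libraries lay above all Flk-1+ libraries, as in WT. Nid2, which was not called in WT, was at 14.0, 23.2 and 15.8 FPKM and then at 87.9 and 119 FPKM (2.499 ± 0.46, adjusted p = 0.00207). Lama1 was at 3.33, 5.25 and 4.24 FPKM and then at 23.8 and 24.7 FPKM (2.27 ± 0.60, adjusted p = 0.0154). The 2 HE1 libraries were nearly equal for Lama1 and did not overlap with Flk-1+.

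Among the fibrillar chains Col3a1, the type III chain of extensible tissues and vessel walls, was at 0, 0.44 and 0 FPKM in Lmo2-/- Flk-1+ and at 23.2 and 27.9 FPKM in Lmo2-/- HE1 (log2 fold change of FPKM + 1 4.55 ± 0.59, adjusted p = 0.000273, limma). Col5a1, whose chain nucleates type I fibrils, went from 4.48, 5.52 and 6.94 FPKM to 53.4 and 166 FPKM (3.86 ± 0.59, adjusted p = 0.00077). Its partner chain Col5a2 went from 0.632, 1.31 and 0.491 FPKM to 11.6 and 41.8 FPKM (3.70 ± 0.54, adjusted p = 0.000554). Each HE1 library exceeded each Flk-1+ library, but for both type V chains replicate 1 was more than 3 times replicate 0. Of the type I chains, Col1a2 went from 0.373, 3.57 and 1.29 FPKM to 21.8 and 96.8 FPKM, and Col1a1 went from 19.0, 15.9 and 26.9 FPKM to 29.6 and 259 FPKM. Col1a2 was called (4.28 ± 0.67, adjusted p = 0.000886), and Col1a1 was close to the threshold (2.08 ± 0.70, adjusted p = 0.0438). The call of Col1a1 was lost when any of 11 of the 13 libraries was left out. Without Lmo2-/- HE1 replicate 1, 13 genes were called (8 basement membrane, 4 fibrillar and Col12a1) and 10.1% of all genes were called higher. The log2 fold changes of the 7 lost genes were 0.53 (Col1a1), 1.68 (Col6a3), 1.43 (Hspg2), 2.25 (Lama1), 1.11 (Lama5), 1.55 (Lamb1) and 1.27 (Sparc).

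**Figure D2:**
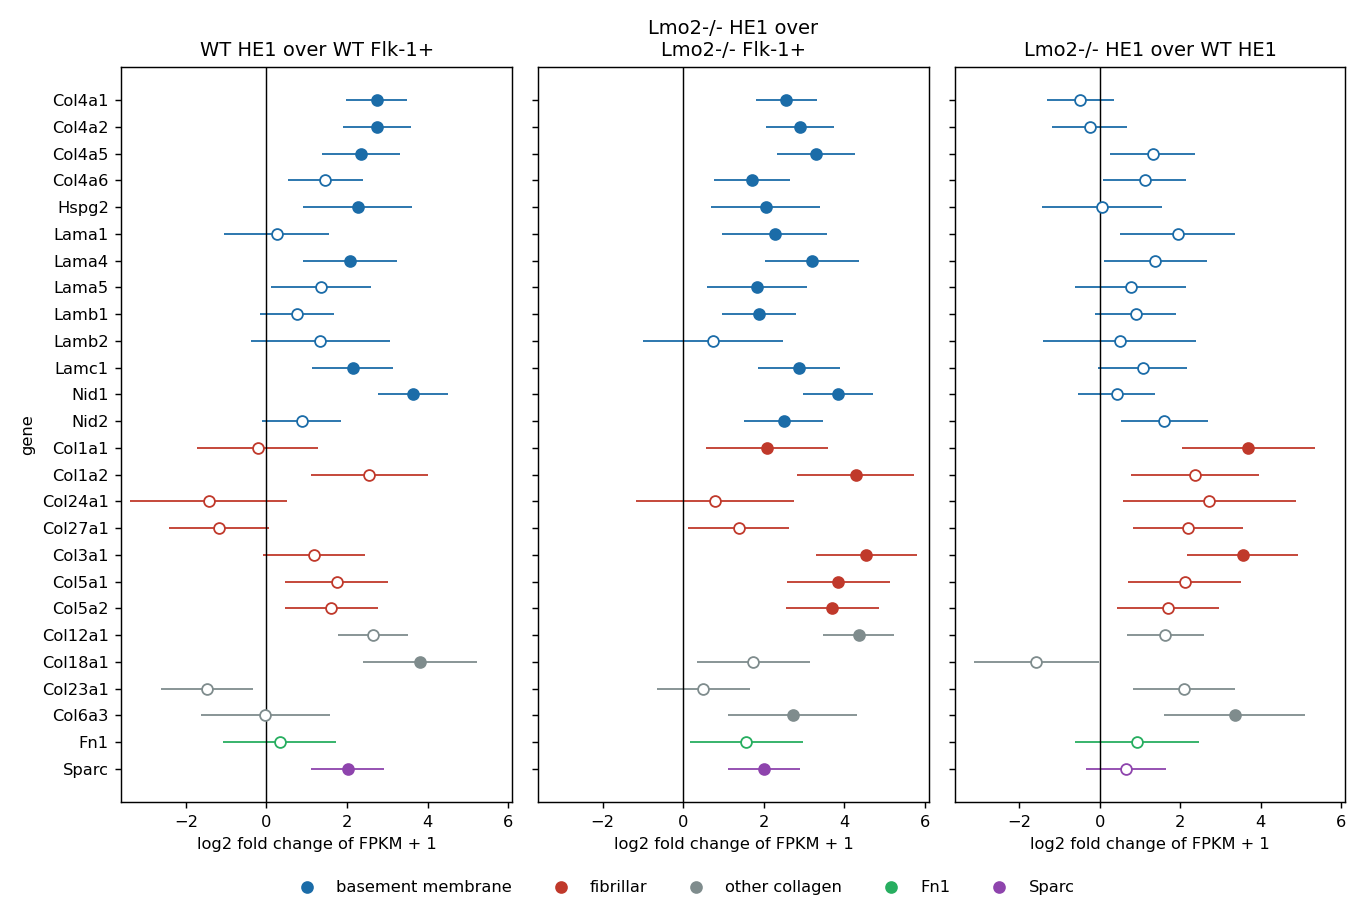
Log2 fold change of FPKM + 1 (x axis) with its 95% interval from limma for each gene above 10 FPKM in a group (y axis), in the WT step, the Lmo2-/- step and between HE1 genotypes. Filled points are called, and the colours give the class. The filled blue points of the first panel have no filled red counterpart, 5 red points are filled in the second panel and 2 in the third, where Col24a1 and Col6a3 are listed at 0 in both WT HE1 libraries and their sizes depend on the 1 added to each FPKM.

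Between the HE1 genotypes, 3 of the 42 genes were called higher in the libraries labelled Lmo2-/- (Col3a1, Col1a1 and Col6a3) and none lower, while 2.15% of all genes were called higher. Col3a1 (chromosome 1, 45311538 to 45349706) was at 0 and 4.14 FPKM in WT HE1 and at 23.2 and 27.9 FPKM in Lmo2-/- HE1 (log2 fold change of FPKM + 1 3.54 ± 0.64, adjusted p = 0.009, limma). Col1a1 (chromosome 11, 94936224 to 94953042) was at 6.64 and 5.23 FPKM in WT HE1 and at 29.6 and 259 FPKM in Lmo2-/- HE1 (3.69 ± 0.77, adjusted p = 0.0172). In both the groups did not overlap, and for Col1a1 the Lmo2-/- libraries differed from each other by more than the lower one differed from WT. Col6a3, a chain of the beaded-filament type VI collagen (chromosome 1, 90765923 to 90843971), was listed at 0 in both WT HE1 libraries and was at 3.95 and 19.96 FPKM in Lmo2-/- HE1 (adjusted p = 0.0346). The exact permutation test gave p = 0.333 for each, the smallest for 2 against 2 libraries.

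Other fibrillar chains leaned the same way without passing. Col1a2 was at 9.07 and 7.45 FPKM in WT HE1 against 21.8 and 96.8 FPKM (log2 fold change 2.36, 95% interval 0.76 to 3.95, adjusted p = 0.0899, limma). Col5a1 was at 22.8 and 19.3 FPKM against 53.4 and 166 FPKM (2.11, interval 0.71 to 3.51, adjusted p = 0.085). Col5a2 was at 6.62 and 5.62 FPKM against 11.6 and 41.8 FPKM (1.71, interval 0.44 to 2.97, adjusted p = 0.12). In all 3 of these chains both Lmo2-/- libraries lay above both WT libraries. Counted over the fibrillar class, 8 of 10 tested genes had their Lmo2-/- libraries above the WT libraries without overlap, as did 25.9% of all genes, and none lay below, as did 13.8% of all genes. Among these 8 was Col24a1 (highest value 28.6 FPKM), listed at 0 in both WT HE1 libraries. It held 0.304% and 4.32% of the fibrillar sum in the Lmo2-/- HE1 libraries. The median log2 fold change was 2.25 for the fibrillar class and 0.83 for the basement membrane class, against 0.15 over all genes. They were 1.25, 0.57 and 0.07 without Lmo2-/- HE1 replicate 1. Col11a2, a low fibrillar chain at 0 and 2.16 FPKM in WT HE1 and 0.836 and 0 in Lmo2-/- HE1, was the 1 with a negative value, and Col2a1 was at 0 in all 4 libraries.

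In the basement membrane class no gene was called between the HE1 genotypes. An unadjusted p below 0.05 (limma) was found for 5 of 14, and for 2851 of all 13802 genes. In the libraries labelled Lmo2-/-, 7 of 14 lay higher without overlap, as did 25.9% of all genes. Nid2 was the nearest, with 35.2 and 31.3 FPKM in WT HE1 against 87.9 and 119 FPKM (log2 fold change 1.60, interval 0.52 to 2.68, adjusted p = 0.0897, limma). Lama1 was at 6.12 and 5.06 FPKM against 23.8 and 24.7 FPKM (1.94, interval 0.51 to 3.37, adjusted p = 0.116). The 2 main type IV chains leaned the other way. Col4a1 was at 243 and 219.8 FPKM against 141 and 195 FPKM (-0.48, interval -1.31 to 0.36, adjusted p = 0.515), the only gene of its class that lay lower without overlap. Col18a1 also lay lower, with 129 and 104 FPKM against 22.8 and 63.7 FPKM (-1.57, interval -3.12 to -0.02, adjusted p = 0.236). Neither difference passed.

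Markers of other cells moved with this comparison. The summed FPKM of 8 fibroblast or feeder markers was 13.4 to 22.9 in WT HE1 and 156 to 475 in Lmo2-/- HE1. Postn made up most of it, with 19.97 and 12.4 FPKM in WT and 99.7 and 372 FPKM in Lmo2-/- HE1, and Pdgfra was at 2.98 and 1.01 against 37.3 and 94.5 FPKM, while Thy1 and Dpt were at 0 in all 4 HE1 libraries. The summed FPKM of 6 smooth muscle markers was 171 to 218 in WT HE1 and 355 to 907 in Lmo2-/- HE1, mostly Acta2, with Myh11 and Cnn1 below 1 FPKM in every HE1 library. The 8 endothelial markers summed to 1091 to 1111 FPKM in WT HE1 and 832 to 971 in Lmo2-/- HE1, but they did not move together. Cdh5, Kdr, Emcn and Esam lay lower without overlap in Lmo2-/- HE1. Tek (121 and 124 against 176 and 154 FPKM) and Pecam1 (109 and 124 against 167 and 144 FPKM) lay higher. Egfl7 and Cldn5 overlapped. Of the 9 visceral endoderm markers the sum was at most 4.46 FPKM in HE1. The part of these levels in the collagen results was not tested. None of the 3 calls was made in all 22 alternative fits. The adjusted p of Col3a1 ranged from 0.0033 to 0.464 and that of Col1a1 from 0.000371 to 0.489, the highest of both being for the 2 groups fitted alone. Without Lmo2-/- HE1 replicate 1 only Col3a1 was called (log2 fold change 3.42), Col1a1 being at 2.15 and Col6a3 at 2.31, and 0.645% of all genes were called higher. Without WT HE1 replicate 0 no gene was called (Col3a1 2.36, Col1a1 3.84), without WT HE1 replicate 1 only Col3a1 (Col1a1 3.54), and without Lmo2-/- HE1 replicate 0, 13 genes were called, with 12.6% of all genes called higher.

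Whether the effect of Lmo2 loss differed between the stages was tested as an interaction. Of the 42 genes none was called (limma), 14 having an unadjusted p below 0.05, while 0.348% of all genes were called. Col3a1, at 0 in all 3 WT Flk-1+ libraries, came nearest (adjusted p = 0.103), followed by Col27a1, a fibrillar chain of cartilage, with a difference of log2 fold changes of 2.56 (95% interval 0.80 to 4.33, adjusted p = 0.219). For the fibrillar class 6 of 10 genes had an unadjusted p below 0.05 (limma), for the basement membrane class 2 of 14 (Lama1 and Nid2), and over all genes 1672 of 13802. The median difference was 2.11 for the fibrillar class, 0.36 for the basement membrane class and 0.23 over all genes. Without Lmo2-/- HE1 replicate 1 these medians were 0.99, 0.30 and 0.15. A step that was called in Lmo2-/- cells but not in WT, such as that of Col5a1, was therefore not shown to differ between the genotypes. Without Lmo2-/- HE1 replicate 0, 8 collagen genes passed, as did 8.48% of all genes. Without WT HE1 replicate 1, Col3a1 passed, as did 0.196% of all genes.

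The classes were next compared with each other within each library, where FPKM, being per length, permits a comparison between genes. Summed over its 20 genes, the basement membrane class was at 332, 183 and 150.0 FPKM in WT Flk-1+ and at 1106 and 892 FPKM in WT HE1. The fibrillar class was at 35.8, 28.1 and 18.9 FPKM in WT Flk-1+ and at 48.2 and 47.2 FPKM in WT HE1. The fibrillar genes thus held 9.76% to 13.3% of the sum of both classes in WT Flk-1+ and 4.18% and 5.02% in WT HE1. In Lmo2-/- Flk-1+ the fibrillar class was at 35.2, 40.8 and 45.8 FPKM, or 13.9% to 17.5% of both, and in Lmo2-/- HE1 at 153 and 661 FPKM, or 12.8% and 28.3%. In Tal1-/- Flk-1+ it held 16.3% to 18.3%.

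Expressed as log2 of basement membrane over fibrillar, the levels were 2.97 ± 0.25 (SD, n = 3) in WT Flk-1+, 2.44 ± 0.20 (n = 3) in Lmo2-/- Flk-1+, 2.25 ± 0.11 (n = 3) in Tal1-/- Flk-1+, 4.38 ± 0.20 (n = 2) in WT HE1 and 2.06 ± 1.01 (n = 2) in Lmo2-/- HE1. No test was made of these sums, whose genes were chosen. The WT HE1 libraries had the highest ratios, 22.9 and 18.9 to 1, and those of the other 11 libraries lay between 2.53 and 9.25 to 1. WT HE1 exceeded WT Flk-1+ by 1.41 on the log2 scale, and by 1.27 to 1.55 with 1 library left out. Lmo2-/- HE1 differed from WT HE1 by -2.32, with -1.61 without Lmo2-/- HE1 replicate 1 and -3.04 without replicate 0. The Lmo2-/- step had no stable direction, with -0.39 over all libraries, 0.33 without HE1 replicate 1 and -1.10 without replicate 0.

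**Figure D3:**
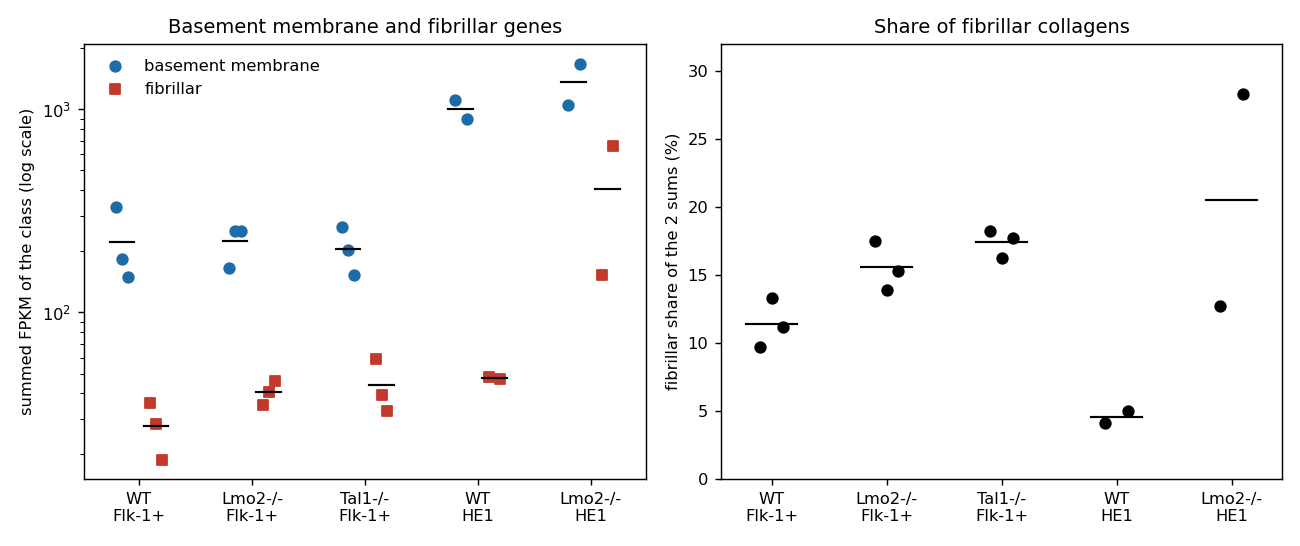
Left, summed FPKM of the basement membrane (circles) and fibrillar (squares) classes per library on a log axis. Right, the percent of the sum of both held by the fibrillar class, from 0. Bars are group means. The WT HE1 libraries have the lowest fibrillar shares, 4.18% and 5.02%, and the Lmo2-/- HE1 libraries, at 12.8% and 28.3%, lie far from each other.

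Composition within the classes was followed through the shares of single chains. Of the type IV chains, Col4a1 and Col4a2 together made up most of the FPKM in every library, and their ratio was steady: Col4a2 over Col4a1 ranged from 0.471 to 0.811 over the 9 Flk-1+ libraries and from 0.593 to 0.912 over the 4 HE1 libraries, which overlap. Col4a5 and Col4a6 held 3.29% and 4.75% of the type IV sum in WT HE1, and 9.88% and 14.3% in Lmo2-/- HE1. In Flk-1+ cells they held 3.05% to 6.79% in WT and 9.24% to 13.1% in Lmo2-/-. At both stages the Lmo2-/- libraries had the larger share, without overlap with WT. The Tal1-/- libraries had 3.10% to 7.67%, overlapping WT.

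The nidogen pair changed its order. Nid1 over Nid2 was 0.426 to 1.09 in the 9 Flk-1+ libraries, with Nid2 the higher in all but 1 of them, and 1.46 to 4.66 in the 4 HE1 libraries, with Nid1 the higher in all 4. In WT HE1 the ratio was 4.10 and 4.66 and in Lmo2-/- HE1 2.46 and 1.46. Of the laminin α chains, Lama5 held the largest mean share in Flk-1+ cells, with 52.5% in WT, 54.9% in Lmo2-/- and 70.4% in Tal1-/-, and Lama4 held 29.2%, 28.8% and 17.7%. In HE1 the 2 shares were closer, Lama5 at 48.0% and Lama4 at 43.8% in WT and 35.5% and 49.6% in Lmo2-/-. Lamb1 and Lamc1 were the leading β and γ chains throughout, Lamc1 with at least 85.9% of the γ chains in every library.

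Of the type I chains, Col1a2 lay well below Col1a1 in all 9 Flk-1+ libraries. Col1a2 over Col1a1 was 0.004 to 0.241 in the 9 Flk-1+ libraries, 1.37 and 1.43 in WT HE1, and 0.738 and 0.374 in Lmo2-/- HE1. All 4 HE1 libraries were above all Flk-1+ libraries, and both WT HE1 libraries above both Lmo2-/- HE1 libraries. Type I collagen is normally assembled from both chains. Col1a1 was the highest fibrillar gene in 7 of the 9 Flk-1+ libraries.

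**Figure D4:**
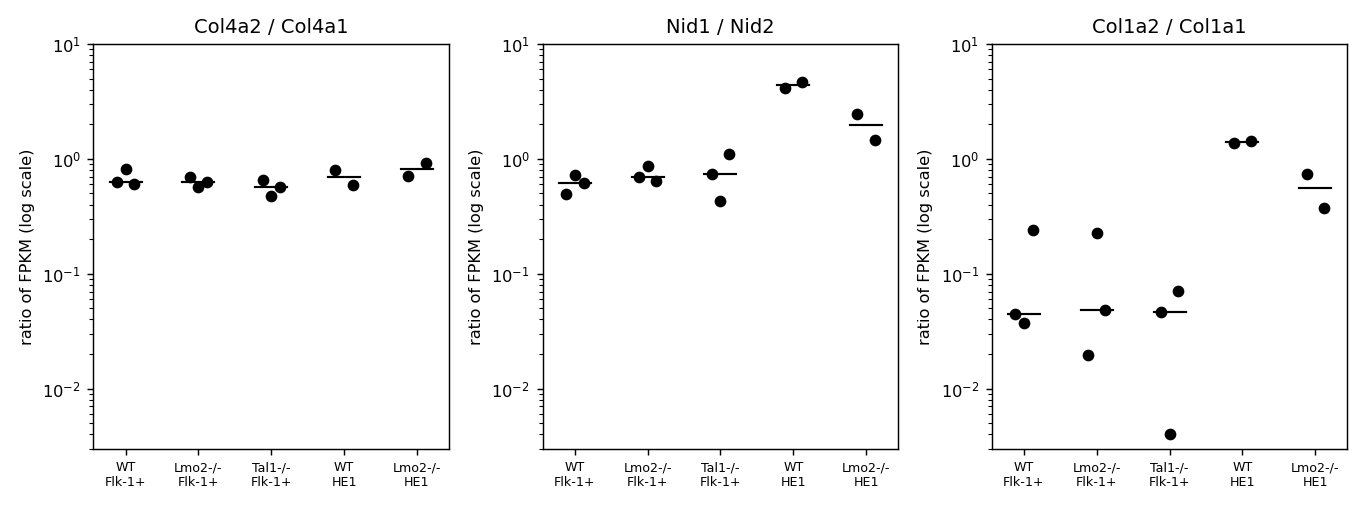
Ratio of the FPKM of partner genes per library (points, log axis, bars at the group median) for the type IV chains, the nidogens and the type I chains. The first ratio stays between 0.471 and 0.912, the second rises above 1 in all HE1 libraries, and the third lies at or below 0.241 in Flk-1+ cells and at or above 0.374 in HE1.

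Fn1 was the highest of the 60 genes in every library and was not called in any comparison. It was at 2896, 821 and 687 FPKM in WT Flk-1+, at 609.6, 1595 and 883 FPKM in Lmo2-/- Flk-1+ and at 865, 1129 and 848 FPKM in Tal1-/- Flk-1+. In HE1 it was at 1534 and 1426 FPKM in WT and at 1608 and 4965 FPKM in Lmo2-/-. Both WT HE1 libraries lay inside the range of WT Flk-1+, and the lower Lmo2-/- HE1 library was just above the highest Lmo2-/- Flk-1+ one. The log2 fold change of the Lmo2-/- step was 1.57 (95% interval 0.17 to 2.97, adjusted p = 0.0931, limma), and 0.76 (interval -0.87 to 2.39) without Lmo2-/- HE1 replicate 1. Sparc was at 176 and 487 FPKM in Lmo2-/- HE1, where the lower library lay below both WT HE1 libraries and the higher one above them.

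In Flk-1+ cells the question was whether loss of LMO2 or TAL1 changed the matrix genes at the haemangioblast stage. No gene of the 42 was called for Lmo2-/- against WT, where 0% of all genes were called (limma), or for Tal1-/- against WT, where the share was also 0%, or between the mutants, where it was 0.0145%. Lmo2 and Tal1 were among the tested genes and were not called against WT either, although their libraries lay apart. A lack of calls here therefore does not show a lack of change. The paper, using Cuffdiff, did report genes that differed among these groups. At an unadjusted p below 0.05 there were 3, 4 and 4 of the 42 genes, and 307, 843 and 822 of all genes. The class medians of the log2 fold change over WT were 0.24 (basement membrane) and 0.23 (fibrillar) in Lmo2-/- and -0.08 and 0.23 in Tal1-/-, against -0.01 over all genes in both. WT Flk-1+ replicate 0 was the highest of its 3 libraries in 12 of the 13 named basement membrane genes.

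The 2 comparisons with WT share their WT libraries, so their values are given side by side. Col1a1 was at 5.80, 12.8 and 4.54 FPKM in WT, at 19.0, 15.9 and 26.9 FPKM in Lmo2-/- and at 30.3, 22.9 and 16.2 FPKM in Tal1-/- Flk-1+. Every mutant library lay above every WT library, with log2 fold changes of 1.39 (95% interval 0.05 to 2.74, adjusted p = 1) in Lmo2-/- and 1.54 (interval 0.20 to 2.89, adjusted p = 0.757) in Tal1-/- that did not pass (limma; exact permutation p = 0.1 each, the smallest for 3 against 3). Col4a6 was at 1.71, 1.19 and 1.90 FPKM in WT, 2.85, 4.96 and 3.59 FPKM in Lmo2-/- and 2.08, 0.807 and 1.55 FPKM in Tal1-/-, higher without overlap in Lmo2-/- but not called. For the type IV pair the intervals were narrower, Col4a1 having -0.31 (interval -0.996 to 0.37) in Lmo2-/- and -0.25 (interval -0.93 to 0.43) in Tal1-/-. Counted over the 42 genes, 6 lay higher without overlap in Lmo2-/- and 1 lower, against 3.99% and 4.22% of all genes. In Tal1-/-, 2 lay higher and 4 lower, against 5.25% and 7.4% of all genes.

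Genes that act on these proteins were taken from 2 lists. The first, collagen maturation, covers chain hydroxylation, folding, secretion, propeptide removal and cross-linking. Of its 31 tested rows 1 was called in the WT step, when 6.04% of all genes were called higher. This was P3h1, a prolyl 3-hydroxylase (log2 fold change 2.11, adjusted p = 0.0295, limma). In the Lmo2-/- step 8 rose, when 17.2% of all genes were called higher, and 1 fell. The largest were Loxl1, a lysyl oxidase (4.31), the procollagen N-proteinase Adamts2 (3.55), the procollagen C-proteinase Bmp1 (3.08) and Loxl2, another lysyl oxidase (2.84). The gene that fell was Adamts3 (-2.72). In the WT step Adamts3 had a log2 fold change of -1.79 (adjusted p = 0.0423, limma), but its means were below 10 FPKM and it was not called. Between the HE1 genotypes 4 were called, when 2.15% of all genes were called higher, each of them higher in the libraries labelled Lmo2-/-: Adamts2 (4.83), Loxl2 (3.42), Loxl1 (3.32) and Plod2, a lysyl hydroxylase (1.77). The list's medians were 0.21, 0.61 and 0.80 in these 3 comparisons. With Lmo2-/- HE1 replicate 1 left out, 5 rose and 1 fell in the Lmo2-/- step, the calls of Loxl1 (3.04), Fkbp10 and Plod1 being lost, and between HE1 genotypes Adamts2 (3.58) and Loxl2 (2.98) were still called, but not Loxl1 (2.06) or Plod2 (1.54). In that fit the log2 fold change of P3h1 in the WT step was 2.11, as before.

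Of 15 tested genes of other basement membrane components, Pxdn, the peroxidase that forms the sulphilimine cross-link of type IV collagen, rose in both steps, with log2 fold changes of 1.93 in WT and 2.41 in Lmo2-/- (adjusted p = 0.0111 and 0.00157, limma). In the Lmo2-/- step 3 others rose, among them Smoc2, a SPARC-related protein, and the hemicentin gene Hmcn1 (2.12), and Frem2 fell by 2.74 on the log2 scale. In the WT step Frem2 had a log2 fold change of -2.10 (adjusted p = 0.0132, limma), but its means were below 10 FPKM and it was not called. Between the HE1 genotypes Smoc2 and Frem1 (3.80) were higher in the libraries labelled Lmo2-/-. Smoc2 was at 0 in both WT HE1 libraries and at 11.9 and 55.0 FPKM in the Lmo2-/- ones. The medians of this list were -0.24, 1.14 and 0.97. The shares of all genes called higher were those given above, 6.04% in the WT step, 17.2% in the Lmo2-/- step and 2.15% between HE1 genotypes. Without Lmo2-/- HE1 replicate 1, Pxdn, Smoc2 and the fall of Frem2 were still called in the Lmo2-/- step, Dag1 and Hmcn1 (0.86) were not, and between HE1 genotypes Smoc2 was still called and Frem1 (3.16) was not. In Flk-1+ cells no gene of either list was called in any comparison.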

How the data were processed

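RNA was measured in 13 polyA RNAseq libraries of 5 groups. The authors aligned the reads to GRCm38 (mm10) with TopHat, built transcripts with Cufflinks, joined by Cuffmerge, and the submitters' processing notes name TopHat2 2.0.9, Cufflinks 2.0.0 and Cuffdiff 2.0.1. Deposited were the FPKM of each library, made with Cuffnorm and used here, and FPKM per condition pooled over replicates, used as an alternative. A deposited table of the authors' own comparisons, with log2 fold changes, p-values and q-values, was not used. The paper names quartile normalisation and effective length correction for Cufflinks and does not say how Cuffnorm scaled the libraries. FPKM is relative to library size, so a high gene may lower the others.

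Tests covered the 13802 of 45250 genes whose locus exceeds 200 bp and that reached 1 FPKM in 2 or more libraries. A model with 1 term per group was fitted by limma 3.58.1 (R 4.3.3, trended prior variance) to the log2(FPKM + 1) values of the 13 libraries. Its p-values are two-sided and adjusted by Benjamini-Hochberg over all tested genes. Calls required adjusted p under 0.05, and 10 FPKM to be exceeded by the mean of a group compared. Fold changes, taken on log2(FPKM + 1), understate those of low genes. An exact permutation test over libraries was added for single genes. The fit was tested on simulated data. Python 3.11.15 with scipy 1.17.1 did the rest. Gene positions, 1-based, are from GENCODE M21 (GRCm38), and promoter windows from RefSeq.

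Named with values were all genes of the 2 classes, Fn1 and Sparc above a mean of 10 FPKM in a group, any other gene called, and up to 4 called genes per further list and comparison. The members and lists were chosen with earlier results of these data known. Alternatives were another pseudocount, 2 other filters, the adjusted p alone, quantile normalization, a common median, the groups fitted alone, array weights, a replicate block, the pooled FPKM, and each library left out.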

Additional observations from a re-analysis of the deposited data

Results flagged for a closer look

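The effect of Lmo2 loss differed between the stages for 2 genes of the lists beside the 60, as tested by the interaction term of limma. For Loxl2, a lysyl oxidase, the effect in HE1 exceeded that in Flk-1+ cells by 2.94 on the log2 scale (adjusted p = 0.0344). It was at 6.93, 8.95 and 8.52 FPKM in WT Flk-1+, at 11.99, 9.81 and 13.3 FPKM in Lmo2-/- Flk-1+, at 10.2 and 5.38 FPKM in WT HE1, and at 66.0 and 121 FPKM in Lmo2-/- HE1. For Smoc2 the difference was 4.71 on the scale of log2(FPKM + 1) (adjusted p = 0.0162). Its size depends on the 1 added, since Smoc2 was listed at 0 in all WT libraries and above 0.1 FPKM only in Lmo2-/- HE1, at 11.9 and 55.0 FPKM. Over all genes 48 of 13802 passed this test, a count that ranged from 8 to 1170 with 1 library left out (24 without Lmo2-/- HE1 replicate 1, 1170 without replicate 0) and was 5 with array weights. The call of Loxl2 was kept in 6 of 22 alternative fits, with differences of 2.26 to 3.38 and adjusted p-values of 0.00526 to 0.146. Without Lmo2-/- HE1 replicate 1 it was 2.51 (adjusted p = 0.1). Of the 13 fits with 1 library left out, only that without Lmo2-/- HE1 replicate 0 kept it. The call of Smoc2 was kept in 14 of 22, with adjusted p-values of 0.000366 to 0.0806, and the difference was 3.65 without Lmo2-/- HE1 replicate 1 (adjusted p = 0.00803). It was lost without WT HE1 replicate 0, WT Flk-1+ replicate 0 or 2, or any of the Lmo2-/- Flk-1+ libraries. No group holds the 4 libraries needed to ask whether 1 library lies apart from its group.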

How the results depend on the processing

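Of the 32 calls of single genes, none changed direction under any alternative. Of their 704 values in alternative fits, 604 kept the call and 100 lost it. Of the 32 values from the authors' pooled FPKM, which have no test, 13 moved by more than 1 SE. Over all 13802 tested genes, calls in either direction numbered 964 (WT step), 2707 (Lmo2-/- step) and 415 (HE1 genotypes). They were 1682, 976 and 51 with array weights, and 629, 1109 and 0 with the groups alone. The adjusted p alone gave 1345, 3524 and 626. A pseudocount of 0.1 gave 887, 2558 and 315, a common median 728, 1759 and 300, and quantile normalization 724, 1248 and 212. No filter gave 835, 2364 and 300 of 19692, and the 10 FPKM filter 1042, 2940 and 389 of 8810. The counts of called matrix genes were 9 (WT step), 20 (Lmo2-/- step) and 3 (HE1 genotypes). They became 12, 13 and 0 with array weights, 8, 14 and 0 with the groups compared alone, 12, 23 and 5 on the adjusted p alone, and 9, 19 and 1 with a pseudocount of 0.1. Rescaling to a common median gave 7, 14 and 2, quantile normalization 8, 14 and 2, no filter 8, 17 and 2, and a filter at 10 FPKM 9, 20 and 2. With 1 library left out they ranged from 4 to 11, from 13 to 25 and from 0 to 13, and the interaction from 0 to 8. A group left with 1 library is assumed to vary like the others. The Flk-1+ comparisons gave 0 calls under each alternative. The common median moved the median of all genes from 0.11 to -0.11 in the WT step and from 0.30 to -0.03 in the Lmo2-/- step. The basement membrane median stayed positive in both steps under it and under quantile normalization (1.504 and 1.60 in WT, 1.89 and 1.47 in Lmo2-/-), while the fibrillar median of the WT step went from -0.08 to -0.26 and 0.13. The log2 ratio of the classes, taken as the mean log2(FPKM + 1) over members, differed by 0.97 in the WT step, -1.34 between HE1 genotypes, -0.0263 for Lmo2-/- and -0.15 for Tal1-/- Flk-1+ against WT. Without Hspg2 and Col1a1, the highest gene of each class, it differed by -0.81 in the Lmo2-/- step, -0.0350 for Lmo2-/- and -0.16 for Tal1-/- Flk-1+. With 1 library left out, it ranged from -1.10 to 0.33 in the Lmo2-/- step and from -3.04 to -1.61 between HE1 genotypes.

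Libraries of the same number correlated in their deviations at -0.184 to -0.0147 between WT and Lmo2-/- Flk-1+, 0.0741 to 0.169 between WT and Tal1-/- and -0.0578 to 0.0234 between the mutants, so the numbers were not taken as pairs. A replicate block gave 7, 17 and 3 calls and 0 elsewhere, against 704, 2189 and 313 of all 13802 genes in the first comparisons. The HE1 groups hold 2 libraries each, and the files give no depth.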

Other observations

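The collagens at low level were described after their values were seen. Col13a1, a transmembrane collagen, was at 5.84, 9.95 and 10.2 FPKM in WT Flk-1+, at 2.77, 4.23 and 4.52 FPKM in Lmo2-/- and at 2.79, 1.63 and 1.74 FPKM in Tal1-/- Flk-1+, and was listed at 0 in both WT HE1 libraries. Every mutant Flk-1+ library lay below every WT library, with log2 fold changes of -0.98 (95% interval -1.93 to -0.04, adjusted p = 1) and -1.65 (interval -2.59 to -0.70, adjusted p = 0.418) that did not pass (limma). The cartilage collagens Col2a1, Col9a1 and Col9a3 were listed at 0 in all 4 HE1 libraries. In the 9 Flk-1+ libraries Col2a1 was at 0.297 to 2.04 FPKM, Col9a1 at 0.211 to 2.58 FPKM and Col9a3 at 0 to 2.17 FPKM. Col11a1, a minor fibrillar chain, was at 0.333 and 0.641 FPKM in WT HE1 and at 4.69 and 8.26 FPKM in Lmo2-/- HE1 (adjusted p = 0.0317, limma), below the 10 FPKM asked of a call.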
